A study of Homo sapiens with 38 samples.

Results

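The 4 large ribosomal RNAs (rRNAs), 28S, 18S, 16S and 12S, were followed in small RNA libraries made from the culture medium of DiFi, a human cell line from a colorectal cancer. They are the entries that the deposited table takes from an rRNA sequence collection and that are neither 5S nor 5.8S rRNA, and they make up 4 of the 22549 entries. The 28S entry is 5035 nt long and the 18S entry 1871 nt. The 16S and 12S entries are named by positions on the mitochondrial chromosome, 1671 to 3229 and 648 to 1601, and have the lengths, 1559 and 954 nt, of the GENCODE genes MT-RNR2 and MT-RNR1. The table gives no genome position for 28S and 18S, which are encoded by many repeats of ribosomal DNA. Library preparation selected short fragments, so a count is a fragment of an rRNA, not an intact molecule.

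The study compared ways of separating small extracellular vesicles (sEV) from exomeres and supermeres, which are small particles without a membrane, and compared flat culture with a bioreactor. No label names a drug or an edited gene, and the RNA of every library was first treated with AlkB enzymes, which remove base methylations that block reverse transcription. A cushion density gradient of medium from a hollow-fibre bioreactor (3D) gave pooled fractions 12, 9_10 and 6_7, with 4 libraries each; the labels speak of vesicles, light and heavy, and of other material but do not say which pool is which. Fast protein liquid chromatography (FPLC) of 3D medium gave supermeres and exomeres, with 4 libraries each. Ultracentrifugation (UC) gave supermeres, exomeres and sEV from 3D medium and from serum-free medium of flat culture (2D), with 3 libraries for each of the 6. The sEV were pelleted at 167000 g for 4 h, exomeres from what remained at 167000 g for 16 h, and supermeres then at 367000 g for 16 h. The labels give a medium pool of 400 mL and aliquots of 60 mL for 3D, and a pool of 1360 mL without an aliquot volume for 2D. Medium was pooled before isolation and the library letters A to D are not tied to pools, so p-values measure the spread between these libraries, which may in part be technical. In such libraries, less of an RNA in a fraction and fewer of its fragments passing size selection cannot be told apart.

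28S rRNA is the RNA of the large subunit of the cytosolic ribosome, where it forms the peptide bond, and 18S rRNA is the RNA of the small subunit, where the codon is read. Both are cut, together with 5.8S rRNA, from a shared precursor made in the nucleolus, and a ribosome holds a single copy of each. 16S and 12S rRNA are the large and small subunit RNAs of the mitochondrial ribosome. Fragments of rRNA are common in extracellular RNA, where full-length rRNA is mostly degraded.

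The sequences of the 28S and 18S entries were not used here. Some entries listed as miRNAs lie in or next to ribosomal DNA or have been linked to its repeats, and 3 of them are shown because a result below turns on which of them had counts. They are given as the deposited table lists them, 5′ to 3′, with the seed (bases 2 to 8) in capitals. hsa-miR-4497 is listed at chr12:109833350-109833366 on the plus strand (GRCh38.p13), hsa-miR-3648 at chr21:8208500-8208520 on the plus strand as the first of its 2 places, and hsa-miR-6724-5p at chr21:8205325-8205347 on the plus strand as the first of its 4 places. The first place of hsa-miR-3648 lies in the ribosomal DNA gene RNA45SN2 of RefSeq and that of hsa-miR-6724-5p beside it, while hsa-miR-4497 has no rRNA gene of RefSeq as a neighbour.
hsa-miR-4497: cTCCGGGAcggctgggc
hsa-miR-3648: aGCCGCGGggatcgccgaggg
hsa-miR-6724-5p: cTGGGCCCgcggcgggcgtgggg

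Total counts ran from 81079 to 16991361 over 37 libraries. The 38th, 3D UC supermere A, held 46 counts, 4 of them 28S (8.7%, 95% Wilson interval 3.43% to 20.3%) and 1 of them 18S, and it was left out, so 3D UC supermere has 2 libraries. The 4 gradient 9_10 libraries were the shallowest of the rest, with totals of 490374, 112383, 81079 and 185733. All 8 epithelial miRNAs listed as markers had counts, and so did all 8 miRNAs listed for blood, liver and muscle. Summed levels were 75 to 155659 counts per 1000000 counts (CPM) for the first list, against 1.51 to 113 CPM for the second. The epithelial level was lowest in FPLC supermeres, with a mean of 313 CPM, and in 3D UC supermeres, with 630 CPM. Levels below are CPM of all counts in a library. Fold changes are from edgeR's quasi-likelihood test scaled to library totals, with p-values adjusted by Benjamini-Hochberg over the 8979 features tested, and a feature is called at an adjusted p below 0.05.

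28S rRNA spanned a wide range, and in 15 of the 37 libraries no other feature had more counts. It averaged 56.7 ± 35.1% of all counts in FPLC supermeres (SD, n = 4), 47.2 ± 12.6% in gradient 12 (n = 4), 24.9 ± 11.9% in FPLC exomeres (n = 4) and 23.5 ± 22.1% in gradient 6_7 (n = 4). In 3D UC sEV it was 16.5 ± 4.19% (n = 3) and in gradient 9_10 5.3 ± 3.17% (n = 4). Below these came 2D UC supermeres with 4.65 ± 0.947%, 2D UC sEV with 3.13 ± 0.411%, 2D UC exomeres with 1.67 ± 0.235% and 3D UC exomeres with 1.43 ± 0.447% (n = 3 each). The lowest share, 0.477 ± 0.148% (n = 2), was that of 3D UC supermeres. In this order, neighbouring groups overlapped in their ranges except at 4 steps: 3D UC sEV above gradient 9_10, 2D UC supermeres above 2D UC sEV, 2D UC sEV above 2D UC exomeres, and 3D UC exomeres above 3D UC supermeres.

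18S rRNA followed another order. It was highest in gradient 12 at 63459.6 ± 56609 CPM (SD, n = 4), then 16482 ± 5750.1 CPM in gradient 6_7, 9479 ± 1814 CPM in gradient 9_10 and 9076 ± 1109 CPM in 2D UC sEV (n = 3). The FPLC supermeres, highest for 28S, were lowest for 18S at 703 ± 485 CPM (n = 4), with 3D UC supermeres next at 1469 ± 743 CPM (n = 2). Neighbouring groups overlapped except that 3D UC sEV lay below 2D UC sEV, and 2D UC supermeres above 2D UC exomeres. Across the 37 libraries the Spearman correlation of 28S and 18S CPM was 0.25, a description over libraries that share the totals they are divided by.

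**Figure D1:**
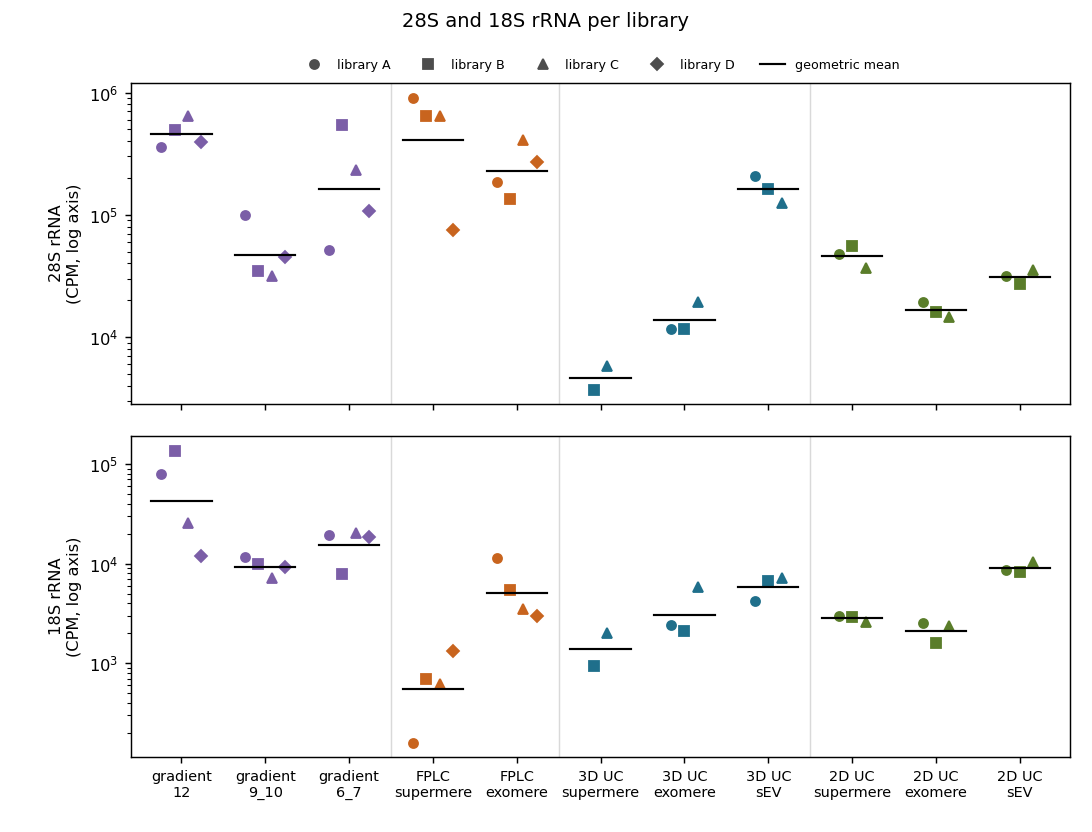
Levels of 28S rRNA (top) and 18S rRNA (bottom) in each library, in CPM on a log axis, by group, with letters A to D as markers and a bar at the geometric mean. FPLC supermeres hold the highest 28S library, 906017 CPM, and the lowest 18S library, 159 CPM, and these are the same library.

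The ratio of 28S to 18S counts within a library does not depend on scaling. Entries of these lengths at equal counts per kilobase would give a count ratio of 2.69, and 36 of the 37 libraries were above it. The exception was gradient 6_7 A at 2.67. The geometric mean ratio was 744 in FPLC supermeres and 45.4 in FPLC exomeres. It was 27.6 in 3D UC sEV, 4.51 in 3D UC exomeres and 3.39 in 3D UC supermeres. The means ran in the opposite order in 2D, with 16.2 in UC supermeres, 7.85 in UC exomeres and 3.44 in UC sEV. In the gradient it was 10.7 in fraction 12, 5.07 in 9_10 and 10.5 in 6_7.

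**Figure D2:**
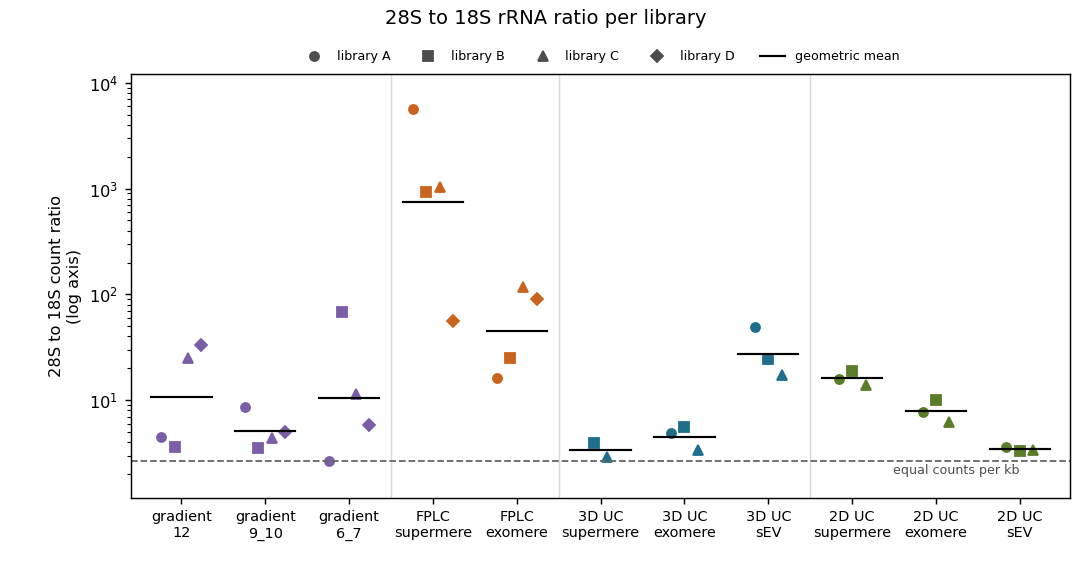
Ratio of 28S to 18S counts in each library, on a log axis, by group, with a bar at the geometric mean and a dashed line at the ratio of equal counts per kilobase. The 3 ranges of 2D UC fractions lie apart, with supermeres highest, and among the 3D UC fractions sEV lie above the others.

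Among the 3D UC fractions, 28S was lower in both particle fractions than in sEV, while 18S was not called by library totals. 28S was at 11622, 11736 and 19427 CPM in exomeres A to C and at 3725 and 5816 CPM in supermeres B and C, against 207836, 162924 and 124026 CPM in sEV A to C. All sEV libraries were above all libraries of the particle fractions. The fall in exomeres had a log2 fold change of -3.53 ± 0.63 (SE) and an adjusted p of 5.91e-06, and that in supermeres a log2 fold change of -5.11 ± 0.81 (SE) and an adjusted p of 8.89e-08. With 16S rRNA, treated further on, 2 of the 4 entries were called lower in each comparison, beside 4.87% of all features in exomeres and 3.98% in supermeres, and the medians over all features were -0.32 and -2.46. The 28S calls ended with DESeq2 (log2 fold change -1.90, adjusted p = 0.15 in exomeres and -1.60, adjusted p = 0.279 in supermeres) and with RLE scaling, which like DESeq2 divides by medians over features and not by totals. Another class, Y RNA, took 75.5, 83.9 and 66.4% of all counts in exomeres A to C and 80.4 and 93.6% in supermeres B and C. In sEV A to C it took 13.4, 23.6 and 24.3%. CPM are shares of a fixed sum, so 28S CPM also depends on the Y RNA counts. The part of Y RNA in the 28S difference was not tested.

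18S was at 2392, 2084 and 5774 CPM in 3D UC exomeres and 943 and 1994 CPM in 3D UC supermeres, against 4223, 6649 and 7144 CPM in 3D UC sEV. The exomere range overlapped that of sEV and the supermere range did not. The log2 fold changes were -0.81 ± 0.67 (SE), adjusted p = 0.498 in exomeres, and -2.03 ± 0.80 (SE), adjusted p = 0.161 in supermeres, where the call depended on the scaling. It was called lower with large rRNA kept out of the totals (-2.29, adjusted p = 0.0154) and higher with RLE scaling (1.66, adjusted p = 0.0496). The ratio of 28S to 18S was 4.86, 5.63 and 3.36 in exomeres and 3.95 and 2.92 in supermeres, against 49.2, 24.5 and 17.4 in sEV. It differed among the 3 fractions (exact permutation test over 560 assignments, two-sided, p = 0.01071, adjusted p = 0.02143 over the 8 ratio comparisons), but not without supermere C (adjusted p = 0.0914). Between supermeres and exomeres, 28S differed by -1.58 ± 0.67 (SE), adjusted p = 0.346, and 0 of the 4 entries were called, beside 0.290% of all features, although the 28S ranges did not overlap.

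Among the 2D UC fractions, none of the 4 entries was called by library totals. 28S was at 47748, 55291 and 36477 CPM in supermeres and 19239, 16069.5 and 14649.7 CPM in exomeres, against 31639.7, 27021 and 35218 CPM in sEV. Supermeres were above sEV and exomeres below, with no overlap of any pair of ranges. The log2 fold changes were 0.57 ± 0.57 (SE), adjusted p = 0.73 in supermeres against sEV, -0.91 ± 0.57 (SE), adjusted p = 0.43 in exomeres against sEV, and 1.48 ± 0.58 (SE), adjusted p = 0.626 in supermeres against exomeres. The second passed with TMM scaling (-2.41, adjusted p = 0.00724), and the second and the last in fits of the groups alone (adjusted p = 0.0237 and 0.0273). Of all features, 5.92% were called in supermeres against sEV, 4.24% in exomeres against sEV and 0.123% in supermeres against exomeres, with medians of 1.12, 1.82 and -0.68.

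18S in 2D was at 3004, 2906 and 2594 CPM in supermeres and 2503, 1597 and 2339.7 CPM in exomeres, against 8705, 8200.0 and 10323 CPM in sEV. Every particle library was below every sEV library. The log2 fold changes were -1.68 ± 0.68 (SE), adjusted p = 0.146 in supermeres, and -2.08 ± 0.69 (SE), adjusted p = 0.0557 in exomeres, the second of which passed with TMM scaling (-3.50, adjusted p = 4.14e-04), DESeq2 (-2.14, adjusted p = 0.0323) and RLE scaling. The 28S to 18S ratio was 15.9, 19 and 14.1 in supermeres and 7.69, 10.1 and 6.26 in exomeres, against 3.63, 3.3 and 3.41 in sEV. It differed among the fractions (exact permutation test over 1680 assignments, two-sided, p = 0.003571, adjusted p = 0.01016 over the 8 ratio comparisons, the smallest p this design allows), and the 3 sEV libraries were the tightest group, with an SD of 0.07 on the log2 scale.

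Between the cultures, 28S was higher in sEV from 3D than from 2D and lower in supermeres. In sEV it was at 207836, 162924 and 124026 CPM in 3D, against 31639.7, 27021 and 35218 CPM in 2D, with a log2 fold change of 2.40 ± 0.60 (SE) and an adjusted p of 0.0116. In supermeres it was at 3725 and 5816 CPM in 3D, against 47748, 55291 and 36477 CPM in 2D, with a log2 fold change of -3.29 ± 0.73 (SE) and an adjusted p of 0.00113. Y RNA took 80.4 and 93.6% of all counts in these 3D supermeres, against 4.87, 4.61 and 4.12% in 2D, and its part was not tested. In exomeres, 49.5% of all features and none of the 4 entries were called, and the median over all features was -4.27. The 28S ranges overlapped, at 11622, 11736 and 19427 CPM in 3D and 19239, 16069.5 and 14649.7 CPM in 2D. The log2 fold change of 28S was -0.22 ± 0.57 (SE), adjusted p = 0.739, and TMM scaling turned the direction (2.22, adjusted p = 0.0263). Y RNA took 75.5, 83.9 and 66.4% of all counts in these 3D exomeres, against 9.51, 9.66 and 8.82% in 2D.

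28S was the only one of the 4 entries called in these comparisons, where 0.735% of all features were called higher in sEV and 7.47% lower in supermeres, and where the medians over all features were -1.68 and -5.56. The sEV call ended with DESeq2 (1.89, adjusted p = 0.121), RLE scaling and without any of 4 libraries (2D UC sEV A, B or C or 3D UC sEV A, adjusted p from 0.0767 to 0.198). It also ended when large rRNA was kept out of the totals (2.62, adjusted p = 0.326). The supermere call ended with TMM (-1.21, adjusted p = 0.412), DESeq2 (-0.98, adjusted p = 0.469), RLE scaling, totals without large rRNA, the near-empty library included, a fit of the 2 groups alone and without supermere B of 3D (adjusted p = 0.0507).

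The difference between supermeres and sEV itself differed between cultures for 28S, by -5.68 ± 0.95 (SE), adjusted p = 4.77e-06, beside 0.991% of all features called lower, and it ended with DESeq2 (-2.86, adjusted p = 0.116) and RLE scaling. For exomeres against sEV this difference was -2.62 ± 0.81 (SE), adjusted p = 0.0818, and none of the 4 entries was called, beside 0.846% of all features. The culture difference in 18S was -0.60 ± 0.66 (SE), adjusted p = 0.605 in sEV, 0.67 ± 0.67 (SE), adjusted p = 0.37 in exomeres, and -0.95 ± 0.76 (SE), adjusted p = 0.282 in supermeres. The 28S to 18S ratio was 8.0 times as high in 3D as in 2D for sEV, and 0.575 and 0.209 times as high for exomeres and supermeres, with no overlap in any fraction. It differed between cultures within fraction (exact permutation test over 4000 assignments, two-sided, p = 0.001, adjusted p = 0.008 over the 8 ratio comparisons, the smallest p this design allows). Culture and medium pool cannot be told apart in this design.

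FPLC fractions held more 28S than the fractions of the same name by UC of 3D medium. A shared name does not show like content. The epithelial miRNAs summed to 46532 ± 45718 CPM in FPLC exomeres, 2786 ± 1299 CPM in 3D UC exomeres and 71600 ± 27068 CPM in 3D UC sEV (mean ± SD). In exomeres, 28S was at 184998, 135168, 406422 and 268511 CPM in FPLC libraries A to D, against 11622, 11736 and 19427 CPM in UC libraries, with a log2 fold change of 4.12 ± 0.63 (SE) and an adjusted p of 5.23e-08. In supermeres, 28S was at 906017, 639005, 649014 and 74876 CPM by FPLC, against 3725 and 5816 CPM by UC, with a log2 fold change of 6.89 ± 0.88 (SE) and an adjusted p of 3.29e-11. Neither pair of ranges overlapped. Y RNA took 18.4, 21.2, 24.4 and 20.1% of all counts in FPLC exomeres and 8.14, 29.4, 26.6 and 28.9% in FPLC supermeres. All of these shares were below those of the 3D UC exomeres and supermeres given above, and their part in the 28S differences was not tested. With 16S in exomeres, 2 of the 4 entries were called higher in exomeres and 1 in supermeres, beside 10.6% and 0.0780% of all features. The medians over all features were 1.85 and 0.00. RLE scaling ended the exomere call (3.31, adjusted p = 0.0674), and every other alternative kept both calls. 18S did not pass in either fraction, with log2 fold changes of 0.77 ± 0.63 (SE), adjusted p = 0.392 in exomeres, and -1.06 ± 0.68 (SE), adjusted p = 0.779 in supermeres.

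The 28S to 18S ratio was 5694, 922, 1046 and 55.9 in FPLC supermeres, against 3.95 and 2.92 in UC supermeres, and 16.2, 25, 117 and 90.1 in FPLC exomeres, against 4.86, 5.63 and 3.36 in UC exomeres. On the log2 scale the FPLC fractions were higher by 7.78 in supermeres and 3.33 in exomeres (exact permutation test within fraction over 525 assignments, two-sided, p = 0.00381, adjusted p = 0.01016 over the 8 ratio comparisons).

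FPLC supermeres against FPLC exomeres showed 28S and 18S called in opposite directions. 28S was higher in supermeres, with a log2 fold change of 1.19 ± 0.50 (SE) and an adjusted p of 0.0389, and its ranges overlapped because supermere D, at 74876 CPM, was below every exomere library. 18S was lower, at 159, 693, 621 and 1338 CPM in supermeres, against 11399.9, 5412, 3479 and 2980.0 CPM in exomeres, with no overlap and a log2 fold change of -3.05 ± 0.62 (SE) and an adjusted p of 3.00e-05. With 16S, 2 of the 4 entries were called lower and 1 higher. Of all features, 0.234% were called higher and 48.0% lower, with a median of -3.77. CPM are shares of a fixed sum, and 28S alone took 90.6% of supermere A. When large rRNA was kept out of the totals, the 28S difference was 3.21, adjusted p = 0.0129, and the 18S difference was -2.16, adjusted p = 3.90e-04.

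The 28S call of FPLC supermeres rested on a narrow margin. It was lost without any of FPLC exomere A, B or D or FPLC supermere A, B or C (adjusted p from 0.071 to 0.127), with no filter, with the near-empty library included and in a fit of the 2 groups alone, and was larger with TMM (4.64, adjusted p = 1.72e-09) and DESeq2 (5.22, adjusted p = 1.57e-09). The 18S call was lost with TMM (-0.66, adjusted p = 0.509), RLE scaling and DESeq2 (-0.43, adjusted p = 0.72). Supermere D stood apart in other classes too, with small nuclear RNA at 39.3% of its counts, against 0.162% to 4.01% in supermeres A to C; its part in the result was not tested beyond leaving it out. The 28S to 18S ratio was 16.4 times as high in supermeres as in exomeres, with overlapping ranges (exact permutation test over 70 assignments, two-sided, p = 0.08571, adjusted p = 0.1143 over the 8 ratio comparisons). Leaving out supermere D, the lowest of its group, gave an adjusted p of 0.0381 in the same test, from the smallest p that the reduced design allows.

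In the gradient, fraction 12 had the highest mean of 28S and of 18S. 28S was at 355972, 495845, 638747 and 397758 CPM in fraction 12, 99712, 34898, 31734 and 45549 CPM in 9_10 and 51753, 546756, 232488 and 107550 CPM in 6_7. All fraction 12 libraries were above all 9_10 libraries, while 6_7 spread across both. The log2 fold changes of 28S were 3.16 ± 0.53 (SE), adjusted p = 1.86e-07 in 12 against 9_10, -2.15 ± 0.51 (SE), adjusted p = 5.70e-04 in 9_10 against 6_7, and 1.01 ± 0.50 (SE), adjusted p = 0.326 in 12 against 6_7. The last passed without 6_7 B (1.85, adjusted p = 0.0155), which at 546756 CPM was the highest 6_7 library, and with RLE scaling and DESeq2. Without that library the difference of 9_10 against 6_7 was -1.30, still called.

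18S was at 80132, 136004, 25681 and 12021 CPM in fraction 12, 11554, 9975, 7191 and 9196 CPM in 9_10 and 19373, 7947, 20318 and 18292 CPM in 6_7. Fraction 12 A, B and C were above every library of the other 2 pools, and 12 D was above every 9_10 library but below 3 of the 6_7 libraries. The log2 fold changes of 18S were 2.74 ± 0.61 (SE), adjusted p = 1.84e-04 in 12 against 9_10, and 1.94 ± 0.59 (SE), adjusted p = 0.0203 in 12 against 6_7. Without 12 B, the highest library, the first was 2.05 and still called. The second ended with no filter and without 12 A or B or 6_7 B or D (adjusted p from 0.0524 to 0.356). In 9_10 against 6_7 the log2 fold change of 18S was -0.80 ± 0.58 (SE), adjusted p = 0.268, with overlapping ranges. There 18S was called lower with TMM, with RLE scaling and with large rRNA kept out of the totals. In 12 against 9_10, 0.646% of all features were called higher, with a median of -5.19. In 12 against 6_7 the share was 1.11%, and in 9_10 against 6_7, 0.134% were called lower, with medians of 0.00 and 5.32.

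The ratio of 28S to 18S did not separate the pools, at 4.44, 3.65, 24.9 and 33.1 in fraction 12, 8.63, 3.5, 4.41 and 4.95 in 9_10 and 2.67, 68.8, 11.4 and 5.88 in 6_7 (exact permutation test over 34650 assignments, two-sided, p = 0.5678, adjusted p = 0.5678 over the 8 ratio comparisons). The libraries within 12 and within 6_7 differed among themselves by more than the pools did.

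Against 3D UC sEV, which came from the same kind of medium, 28S was lower in gradient 9_10 and not called in 6_7. The log2 fold changes of 28S were -1.64 ± 0.53 (SE), adjusted p = 0.0488 in 9_10, and 0.51 ± 0.54 (SE), adjusted p = 0.595 in 6_7. The first lay at the threshold and was lost under DESeq2, RLE scaling, no filter, totals without large rRNA, the near-empty library included and without any of 6 of the 7 libraries (adjusted p from 0.0676 to 0.229). With 16S, 2 of the 4 entries were called lower in 9_10 and 1 in 6_7, beside 1.24% and 3.36% of all features, with medians of 2.71 and -2.23. For 18S the log2 fold changes were 0.66 ± 0.63 (SE), adjusted p = 0.478 in 9_10, where TMM scaling turned the direction (-2.06, adjusted p = 0.0413), and 1.46 ± 0.65 (SE), adjusted p = 0.207 in 6_7. The 28S to 18S ratio of 9_10 was 0.184 times that of 3D UC sEV, without overlap (exact permutation test over 35 assignments, two-sided, p = 0.02857, adjusted p = 0.04571 over the 8 ratio comparisons, the smallest p this design allows). Leaving out any of the 7 libraries gave an adjusted p of 0.107 or 0.133, from the smallest p that the reduced designs allow. For 6_7 the ratio was 0.383 times that of sEV, with overlap (exact permutation test over 35 assignments, p = 0.3143, adjusted p = 0.3592 over the 8 ratio comparisons).

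**Figure D3:**
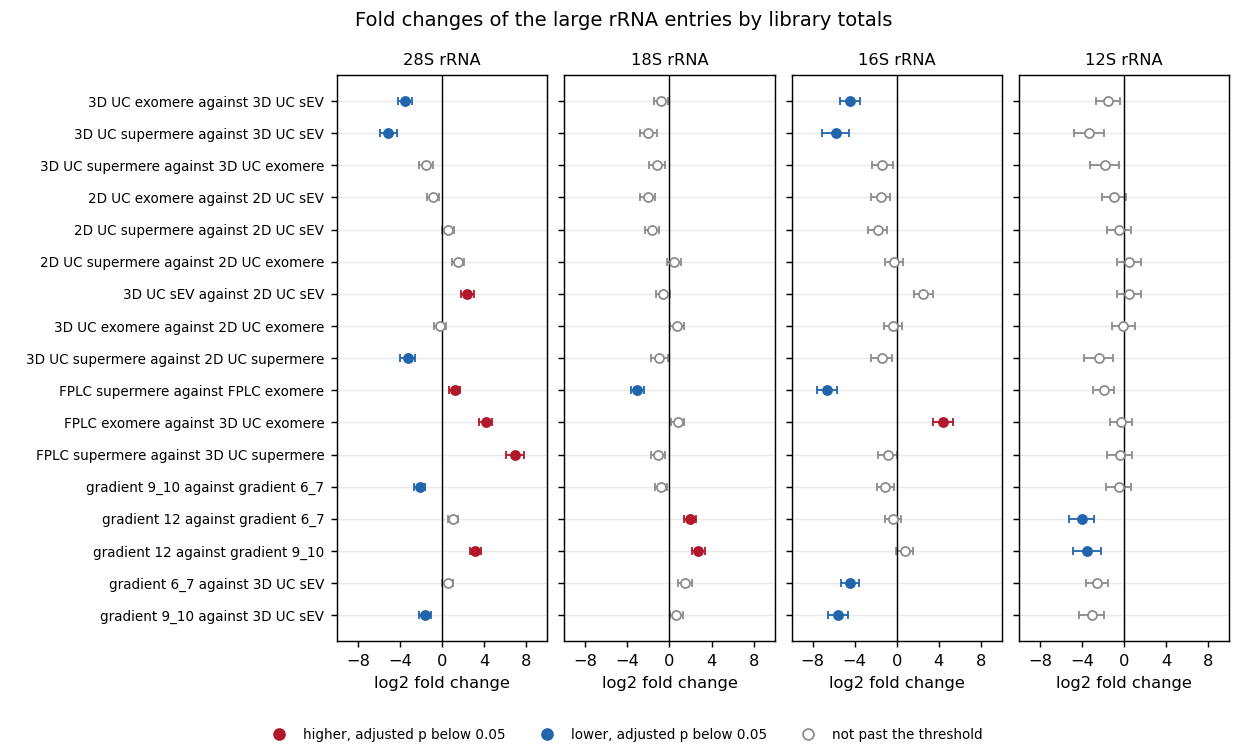
Log2 fold change (horizontal axis) of the 4 large rRNA entries in the 17 comparisons of 2 groups, first named over second, with bars for the SE and filled points where the adjusted p is below 0.05. 28S was called in 10 comparisons, 16S in 6, 18S in 3 and 12S in 2.

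The mitochondrial 16S rRNA was high in 2 groups. It was at 567, 2103 and 1213 CPM in 3D UC sEV and 2123, 653, 671 and 1709 CPM in FPLC exomeres, and these ranges overlapped each other and that of no other group. The 2D UC sEV came next at 210.5, 206 and 254 CPM, and no library of the other 8 groups was above 108 CPM. Per kilobase, 16S averaged 830.1 CPM in 3D UC sEV, against 3209.8 CPM for 18S in the same libraries. As a share of the 18S counts, 16S was 13.4, 31.6 and 17% in 3D UC sEV and 18.6, 12.1, 19.3 and 57.3% in FPLC exomeres, against 2.42, 2.51 and 2.46% in 2D UC sEV.

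16S was called in 6 comparisons. It was lower than in 3D UC sEV in 3D UC exomeres (-4.43, SE 0.98, adjusted p = 6.06e-04), 3D UC supermeres (-5.81, SE 1.26, adjusted p = 2.95e-04), gradient 6_7 (-4.46, SE 0.87, adjusted p = 4.13e-05) and gradient 9_10 (-5.55, SE 0.95, adjusted p = 2.27e-06), all as log2 fold changes, of which the supermere one was -6.86 without supermere B and was lost without supermere C (adjusted p = 0.117) and with RLE scaling (adjusted p = 0.057). The 9_10 fold change rests on 5, 10, 0 and 3 counts in libraries A to D and was -7.01 without 9_10 B, so it does not measure the size. It was lower in FPLC supermeres than in FPLC exomeres (-6.65, SE 0.95, adjusted p = 2.76e-10), with 3.55, 13.1, 10.9 and 24.3 CPM in supermeres, all below the exomere libraries. In FPLC exomeres against 3D UC exomeres it was higher (4.42, SE 0.96, adjusted p = 6.59e-04), with 59.7, 45.2 and 75.3 CPM in the UC libraries, all below the FPLC ones. Between 3D and 2D UC sEV the ranges did not overlap and the log2 fold change was 2.53 ± 0.90 (SE), adjusted p = 0.249, and it passed with TMM (3.41, adjusted p = 0.0215) and DESeq2 (1.90, adjusted p = 0.0115).

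12S rRNA stayed low throughout. Its highest group mean was 85 ± 44.5 CPM in 3D UC sEV (SD, n = 3), and 24.8 ± 14.4 CPM was found in FPLC exomeres (n = 4), a group whose 16S range overlapped that of 3D UC sEV. The 16S to 12S count ratio was 14.7, 16.5 and 13.6 in 3D UC sEV and 51.2, 34.6, 82.2 and 55.3 in FPLC exomeres, against 4.04, 3.6 and 3.42 in 2D UC sEV. In gradient 12 the 12S counts were 1, 1, 3 and 0 in libraries A to D, and the 0 allows up to 1.51 CPM (3 counts). In gradient 9_10 the counts were 0, 0, 2 and 4 in A to D, where a 0 allows up to 6.12 CPM in A and 26.7 CPM in B. 12S was called lower in gradient 12 than in 6_7 (adjusted p = 0.0165) and 9_10 (adjusted p = 0.028), on so few counts that the fitted fold changes do not measure the size, beside 5.39% and 43.5% of all features. The first ended without 12 A, B or D or 6_7 D (adjusted p from 0.0513 to 0.116), the second without 12 B or D or 9_10 C or D (0.0571 to 0.240), and both with no filter, RLE scaling, DESeq2 and totals without large rRNA.

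**Figure D4:**
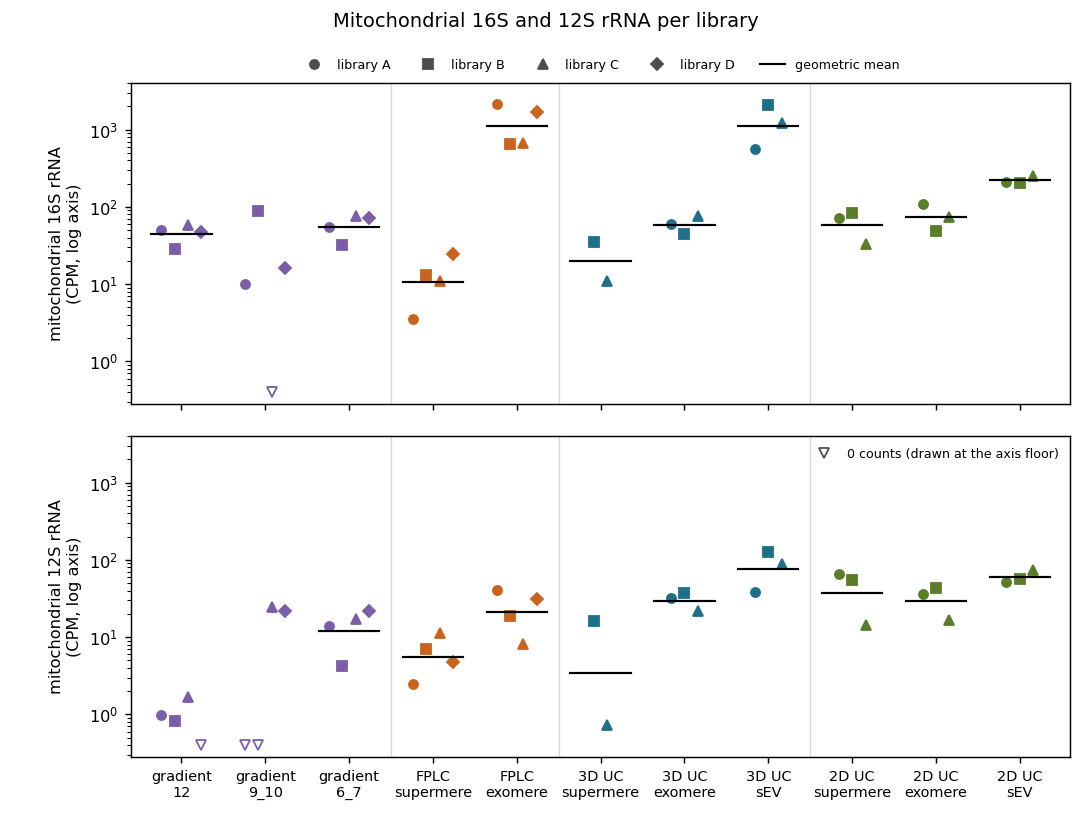
Levels of mitochondrial 16S rRNA (top) and 12S rRNA (bottom) in each library, in CPM on a shared log axis, by group, with a bar at the geometric mean where no library is at 0 and open triangles for libraries with 0 counts. For 16S, 3D UC sEV and FPLC exomeres lie between 567 and 2123 CPM, above every other group, and no such step appears for 12S.

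The other rRNAs and the RNAs that shape rRNA were set beside the large entries. 5.8S rRNA, which pairs with 28S in the ribosome, and 5S rRNA, which is made outside the nucleolus and joins the large subunit, are listed as 7 and 17 entries that share reads. The summed 5.8S level was 22.9, 67.4, 36.3 and 308 CPM in FPLC supermeres, against 2157, 3474, 2963 and 2836 CPM in FPLC exomeres, with 5 of 7 entries called lower, beside 48.0% of all features, and 2 with TMM, RLE or DESeq2. The list median was -3.73, near the -3.77 over all features. For 5S it was 24.9, 93.8, 91.3 and 164 CPM in FPLC supermeres, against 5497, 2226, 1541 and 1801 CPM in FPLC exomeres, with 3 of the 6 tested entries lower, a share close to the 48.0% of all features, and 2 with TMM and 1 with RLE. The 5S median was -3.14. No supermere library reached the lowest exomere library in either. In 3D UC supermeres and exomeres the leading 5.8S entry, RNA5-8SN1, was lower than in sEV (-7.15, SE 1.14, adjusted p = 1.20e-07 and -3.86, SE 0.81, adjusted p = 2.23e-04, as log2 fold changes). It was also lower in 2D UC supermeres and exomeres than in 2D UC sEV (-5.88, SE 0.89, adjusted p = 5.91e-09 and -5.37, SE 0.87, adjusted p = 2.27e-07), where 28S was not called.

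Small nucleolar RNAs guide chemical marks on rRNA, the C/D box ones 2′-O-methylation and the H/ACA box ones pseudouridylation, and both lists were chosen with earlier results known. In FPLC supermeres against FPLC exomeres, 117 of 158 tested C/D box and 74 of 98 tested H/ACA box entries were lower and 0 higher, with list medians of -5.46 and -5.55, against -3.77 over all features. With TMM, 52 and 27 were lower, and 2 and 1 higher. In 3D UC exomeres against sEV the counts lower were 80 and 37, with medians of -5.50 and -5.51, against -0.32, and 35 and 19 with RLE scaling. In FPLC exomeres against 3D UC exomeres, 64 and 34 were higher and 0 lower, with medians of 3.80 and 3.95, against 1.85, and 41 and 17 with RLE scaling. The summed C/D box level was 10761 ± 2978 CPM in 2D UC supermeres and 6687 ± 702 CPM in 2D UC exomeres (SD, n = 3 each). It was 4785 ± 2284 CPM in 2D UC sEV (n = 3). Against these sEV, 74 and 34 C/D box entries were lower and 5 and 0 higher, and 24 and 10 H/ACA box entries were lower and 1 and 0 higher. In gradient 12 against 6_7, 10 C/D box entries were higher and 4 lower, and 10 H/ACA box entries were higher and 0 lower. The background shares for these comparisons are those given above.

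The RNAs that take part in processing the rRNA precursor, led by U3 (SNORD3A, SNORD3B-1 and SNORD3C, near-identical copies that share reads), were counted in the first 3 of these comparisons. By library totals, 15 of 18 tested entries were lower in FPLC supermeres than in FPLC exomeres, beside 48.0% of all features. In 3D UC exomeres against sEV 11 were lower, beside 4.87% of all features. In FPLC against UC exomeres 11 were higher, beside 10.6% of all features. Most of these entries are also on the C/D box list. SNORD3A averaged 21.1 ± 13.6 CPM in FPLC supermeres, against 3504 ± 2848 CPM in FPLC exomeres (SD, n = 4 each), and 32.7 ± 8.3 CPM in 3D UC exomeres, against 1373 ± 652 CPM in 3D UC sEV (n = 3 each). 7SL RNA, the signal recognition particle RNA that docks on ribosomes, was called lower for 3 of 3 entries in gradient 12 against 6_7, beside 5.39% of all features, with a list median of -6.88, against 0.00 over all features. With RLE scaling 2 of the 3 were called lower, and with TMM, DESeq2 or large rRNA kept out of the totals 3.

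Of the miRNA entries listed for ribosomal DNA, 5 were in the table and hsa-miR-4497, shown above, was the only one tested. Its listed place shows no link to ribosomal DNA, and its sequence was not compared with rRNA. hsa-miR-4497 had at most 3 counts in each library of FPLC and 3D UC supermeres and 0 in the 3 libraries of 3D UC exomeres. Against these, it was at 37.4, 29, 40.2 and 66.3 CPM in FPLC exomeres and 83.9, 132 and 114 CPM in 3D UC sEV, and it was at 0.558, 2.59 and 1.11 CPM in 2D UC sEV. In gradient 12 it was at 236, 132, 213 and 123 CPM. The log2 fold change was 6.24, SE 1.34, adjusted p = 0.00162 in 3D against 2D UC sEV, and 4.02, SE 1.05, adjusted p = 0.00334 in gradient 12 against 6_7, and both held with TMM, RLE and DESeq2. Within gradient 6_7, library B, the one highest in 28S, held 36.5 CPM and the others 1.55 to 3.19 CPM, values of 2 to 7 counts. Gradient 9_10, lower in mean 28S than 6_7, held 18.4, 26.7, 24.7 and 26.9 CPM, on 9, 3, 2 and 5 counts. The order of the groups by hsa-miR-4497 was thus not that by 28S, and FPLC supermeres, the highest in mean 28S, nearly lacked it. hsa-miR-3648 and hsa-miR-6724-5p averaged at most 1.21 CPM in any group.

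Among 413 features with a mean of at least 50 CPM, those whose CPM ranked most like 28S over the 37 libraries were RN7SK (rho 0.67), RN7SKP160 (rho 0.63), SNORA71A (rho 0.41), SNORD102 (rho 0.37) and RNU1-75P (rho 0.33). RN7SK is 7SK, a nuclear RNA that restrains transcription elongation. For 18S they were tRNA-Leu-AAG-1-1 (rho 0.80), tRNA-Ser-TGA-1-1 (rho 0.80), tRNA-Ser-AGA-1-1 (rho 0.80), tRNA-Lys-CTT-10-1 (rho 0.75) and tRNA-Leu-CAG-1-1 (rho 0.75), all transfer RNA entries. These are descriptions over libraries that share their totals and groups. Among the large entries themselves, the correlation was 0.60 between 16S and 12S and -0.04 between 16S and 28S.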

How the data were processed

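Small RNA was sequenced from 38 libraries in 11 groups. The authors deposited a table of estimated counts per feature, of which 6.71% are not whole (tolerance 1e-06); those of the 4 large rRNA entries are whole. Per the submitters' processing notes, cutadapt 4.5, FastQC 0.12.1, Bowtie 1.3.1 and GRCh38.p13 were used; the counting tool and how reads matching several entries were shared are not given in the sources used here. Per the labels' protocols, RNA was AlkB-treated, ligated with a NEXTFlex small RNA kit and size-selected. Counts were rounded and tested with edgeR 4.0.16 (R 4.3.3; quasi-likelihood, robust, 11 group means, 26 residual degrees of freedom), scaled to library totals, after filterByExpr with a minimum count of 10, which left 8979 features; edgeR's common coefficient of variation between replicates was 1.29. Libraries under 1000 counts (3D UC supermere A) were left out. The SE of a log2 fold change was taken from the test, as its absolute value divided by the square root of edgeR's F statistic. Adjusted p-values are Benjamini-Hochberg over these features. Fits with TMM, RLE, DESeq2 1.42.0, no filter, all libraries, a replicate block, fewer groups, totals without large rRNA and without each library were alternatives. The 28S to 18S ratio used a pseudocount of 0.5 on each count and exact permutation tests on the sum of squares between groups of the log2 ratio. Intervals and limits from a count of 0 (3 counts) cover counting error only. On simulated counts of 2833 features for 3D UC exomeres against sEV, the test recovered 3 of 50 changes of 2-fold, 45 of 50 of 8-fold and 40 of 50 at 0.125-fold, with 5 false calls. They were drawn with a dispersion of 0.3, below that of the deposited counts, so these shares do not give the power of the tests reported here. The name of the deposited table holds more than 1 project number, and which libraries belong to which is not given, so a batch cannot be told apart from culture or method. The members and all lists were chosen with earlier results of these data known. The named features are the 4 entries, the leading entries of the lists and the 5 features per entry with the highest Spearman correlation for 28S and 18S. Python 3.11.15, pandas 2.3.3, scipy 1.17.1 and matplotlib 3.10.9 were used.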

Additional observations from a re-analysis of the deposited data

Results flagged for a closer look

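18S rRNA in gradient 6_7 B, at 7947 CPM, lay below the other 6_7 libraries, at 19373, 20318 and 18292 CPM in A, C and D, by more than Dixon's 95% limit for 4 samples. Of 25 sets of 4 libraries examined, 1 passed that limit, and chance gives about 1 in 20. The same library held the highest 28S level of its group, 546756 CPM.

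The change of 28S in supermeres against sEV differed between cultures by -5.68 on the log2 scale, with an adjusted p of 4.77e-06 in edgeR. The log2 fold change was -5.11 in 3D and 0.57 in 2D.

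In the near-empty library 3D UC supermere A, which entered no comparison, 4 of 46 counts were 28S. This is 8.70% (95% Wilson interval 3.43% to 20.3%), against 0.372% and 0.582% in supermeres B and C of 3D.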

How the results depend on the processing

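TMM factors ran from 0.0670 to 8.98 and RLE factors from 0.0476 to 3.03. The median log2 fold change over all features lay between -5.56 and 5.32 in the comparisons scaled to totals. It shifted by -2.71 to 3.44 with TMM, by -1.03 to 3.10 with RLE and by -5.32 to 5.55 with DESeq2. The DESeq2 medians are over features not filtered beforehand, while its adjusted p-values covered 1095 to 6228 features, depending on the comparison. The median shifted by -5.32 to 5.19 with no filter, where more features enter it, and by -4.85 to 1.28 in fits of the groups of a comparison alone. Of the 10 calls of 28S between pairs of groups, 9 held with TMM, 4 with RLE and 5 with DESeq2. The counts were 6, 5 and 6 of 6 for 16S, 2, 2 and 2 of 3 for 18S, and 1, 0 and 0 of 2 for 12S. Fold changes that were not called carry no direction: with RLE, 6 of the 17 for 12S and 4 of the 17 for 18S had another sign. Depth limits 12S most, with 0 to 4 counts a library in gradient 12 and 9_10. With 1 library near-empty, 3D UC supermeres rest on 2 libraries. Log2 fold changes stand in parentheses below, and the cause of a change was not tested beyond what each setting alters.

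With TMM factors, the calls lost were 28S in 3D UC supermere against 2D UC supermere (-1.21), 18S in FPLC supermere against FPLC exomere (-0.66) and 12S in gradient 12 against gradient 9_10 (-0.60). Calls gained with TMM factors were 28S in 2D UC exomere against 2D UC sEV (-2.41), 18S in 2D UC exomere against 2D UC sEV (-3.50), 3D UC exomere against 2D UC exomere (2.96) and gradient 9_10 against gradient 6_7 (-3.47), 16S in 2D UC exomere against 2D UC sEV (-3.03), 2D UC supermere against 2D UC sEV (-2.64), 3D UC sEV against 2D UC sEV (3.41), gradient 9_10 against gradient 6_7 (-4.20) and gradient 12 against gradient 9_10 (4.42) and 12S in gradient 9_10 against 3D UC sEV (-5.54). Under TMM factors, a difference of the opposite sign was called for 28S in 3D UC exomere against 2D UC exomere (2.22) and 18S in gradient 9_10 against 3D UC sEV (-2.06). With RLE size factors, the calls lost were 28S in 3D UC exomere against 3D UC sEV (-1.90), 3D UC supermere against 3D UC sEV (-1.60), 3D UC sEV against 2D UC sEV (1.89), 3D UC supermere against 2D UC supermere (-0.98), FPLC exomere against 3D UC exomere (3.31), gradient 9_10 against 3D UC sEV (-1.43) and the culture difference of supermere against sEV (-2.86), 18S in FPLC supermere against FPLC exomere (-0.43), 16S in 3D UC supermere against 3D UC sEV (-2.93) and 12S in gradient 12 against gradient 6_7 (-1.17) and gradient 12 against gradient 9_10 (-0.045). Calls gained with RLE size factors were 28S in gradient 12 against gradient 6_7 (3.71), 18S in 2D UC exomere against 2D UC sEV (-2.14), 3D UC exomere against 2D UC exomere (1.78), gradient 9_10 against gradient 6_7 (-1.29), gradient 6_7 against 3D UC sEV (2.18) and the culture difference of exomere against sEV (2.97) and 16S in gradient 12 against gradient 9_10 (4.08). Under RLE size factors, a difference of the opposite sign was called for 18S in 3D UC supermere against 3D UC sEV (1.66) and the culture difference of supermere against sEV (2.64) and 16S in gradient 12 against gradient 6_7 (2.45). With large rRNA kept out of the totals, the calls lost were 28S in 3D UC sEV against 2D UC sEV (2.62), 3D UC supermere against 2D UC supermere (-3.35) and gradient 9_10 against 3D UC sEV (-1.81) and 12S in gradient 12 against gradient 6_7 (-3.12) and gradient 12 against gradient 9_10 (-2.33). Calls gained with large rRNA kept out of the totals were 18S in 3D UC supermere against 3D UC sEV (-2.29), 2D UC exomere against 2D UC sEV (-2.11), 2D UC supermere against 2D UC sEV (-1.67) and gradient 9_10 against gradient 6_7 (-1.09) and 16S in gradient 12 against gradient 9_10 (1.85) and the culture difference of supermere against sEV (-4.25). With no filter on low counts, the calls lost were 28S in FPLC supermere against FPLC exomere (1.19) and gradient 9_10 against 3D UC sEV (-1.64), 18S in gradient 12 against gradient 6_7 (1.94) and 12S in gradient 12 against gradient 6_7 (-4.03) and gradient 12 against gradient 9_10 (-3.54). With the near-empty library in the fit, the calls lost were 28S in 3D UC supermere against 2D UC supermere (-1.69), FPLC supermere against FPLC exomere (1.19) and gradient 9_10 against 3D UC sEV (-1.64). The call gained with the near-empty library in the fit was 18S in 2D UC exomere against 2D UC sEV (-2.08). In fits of the groups of a comparison alone, the calls lost were 28S in 3D UC supermere against 2D UC supermere (-3.29) and FPLC supermere against FPLC exomere (1.19). Calls gained in such fits were 28S in 2D UC exomere against 2D UC sEV (-0.91), 2D UC supermere against 2D UC exomere (1.48) and the culture difference of exomere against sEV (-2.62), 18S in 2D UC exomere against 2D UC sEV (-2.08), 2D UC supermere against 2D UC sEV (-1.68) and gradient 6_7 against 3D UC sEV (1.46), 16S in 2D UC exomere against 2D UC sEV (-1.53), 2D UC supermere against 2D UC sEV (-1.83), 3D UC sEV against 2D UC sEV (2.53), the culture difference of exomere against sEV (-2.90) and the culture difference of supermere against sEV (-3.98) and 12S in gradient 6_7 against 3D UC sEV (-2.56) and gradient 9_10 against 3D UC sEV (-3.21). With DESeq2, the calls lost were 28S in 3D UC exomere against 3D UC sEV (-1.90), 3D UC supermere against 3D UC sEV (-1.60), 3D UC sEV against 2D UC sEV (1.89), 3D UC supermere against 2D UC supermere (-0.98), gradient 9_10 against 3D UC sEV (-1.43) and the culture difference of supermere against sEV (-2.86), 18S in FPLC supermere against FPLC exomere (-0.43) and 12S in gradient 12 against gradient 6_7 (-1.22) and gradient 12 against gradient 9_10 (-0.029). Calls gained with DESeq2 were 28S in gradient 12 against gradient 6_7 (3.71), 18S in 2D UC exomere against 2D UC sEV (-2.14), gradient 6_7 against 3D UC sEV (2.18) and the culture difference of exomere against sEV (2.97), 16S in 3D UC sEV against 2D UC sEV (1.90), gradient 9_10 against gradient 6_7 (-1.70) and gradient 12 against gradient 9_10 (4.16) and 12S in gradient 9_10 against 3D UC sEV (-2.99). Under DESeq2, a difference of the opposite sign was called for 16S in gradient 12 against gradient 6_7 (2.45).

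Same-letter correlations of deviations from the group means ran from -0.12 to 0.34, and no comparison had all of its pairs above 0.1. With 2 to 4 such pairs in a comparison, this cannot show that the letters are unrelated. The same-letter mean was highest in 2D UC supermere against 2D UC exomere, 0.15 against -0.076 between other letters. In FPLC exomere against 3D UC exomere it was the lower, -0.030 against 0.010. The main fit used no pairing by letter. With a replicate block set within each culture, calls were no longer made for 28S in FPLC supermere against FPLC exomere (1.00), 12S in gradient 12 against gradient 9_10 (-3.40) and 28S in gradient 9_10 against 3D UC sEV (-1.43). The 28S call in 3D UC sEV against 2D UC sEV also ended (2.26). Letters of different cultures are not matched, so that fit is no blocked test of culture. The adjusted p of the 28S to 18S ratio was 0.05 in FPLC against 3D UC within fraction and 0.167 in gradient 9_10 against 3D UC sEV with the block, which could not be formed between cultures.

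Leaving out 1 library at a time, the log2 fold change lay in these ranges where a call was lost or gained. For 28S it was 2.20 to 2.57 in 3D UC sEV against 2D UC sEV, -3.64 to -3.00 in 3D UC supermere against 2D UC supermere, -2.14 to -1.44 in gradient 9_10 against 3D UC sEV, 0.87 to 1.56 in FPLC supermere against FPLC exomere and 0.68 to 1.85 in gradient 12 against gradient 6_7. For 18S it was 1.25 to 2.29 in gradient 12 against gradient 6_7. For 16S it was -6.86 to -5.20 in 3D UC supermere against 3D UC sEV and -2.54 to -0.73 in gradient 9_10 against gradient 6_7. For 12S it was -4.71 to -3.56 in gradient 12 against gradient 6_7 and -4.20 to -2.52 in gradient 12 against gradient 9_10. The adjusted p of the ratio lay at 0.0191 to 0.0914 for 3 fractions of 3D UC, 0.0381 to 0.191 for FPLC supermere against FPLC exomere and 0.107 to 0.133 for gradient 9_10 against 3D UC sEV. A pseudocount of 10 moved no ratio across the threshold.

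Counts of called features, with those higher in parentheses, were as follows. They are out of 8979 features by totals, TMM and RLE, and out of 1095 to 6228 features with DESeq2, depending on the comparison. 3D UC exomere against 3D UC sEV gave 447 (10 higher) by totals, 619 (14 higher) with TMM, 245 (91 higher) with RLE and 579 (229 higher) with DESeq2. 3D UC supermere against 3D UC sEV gave 362 (5 higher) by totals, 462 (30 higher) with TMM, 301 (167 higher) with RLE and 489 (236 higher) with DESeq2. 3D UC supermere against 3D UC exomere gave 26 (4 higher) by totals, 22 (8 higher) with TMM, 74 (58 higher) with RLE and 132 (95 higher) with DESeq2. 2D UC exomere against 2D UC sEV gave 381 (101 higher) by totals, 579 (41 higher) with TMM, 457 (140 higher) with RLE and 567 (190 higher) with DESeq2. 2D UC supermere against 2D UC sEV gave 532 (126 higher) by totals, 702 (125 higher) with TMM, 575 (221 higher) with RLE and 711 (269 higher) with DESeq2. 2D UC supermere against 2D UC exomere gave 11 (0 higher) by totals, 5 (0 higher) with TMM, 5 (1 higher) with RLE and 131 (58 higher) with DESeq2. 3D UC sEV against 2D UC sEV gave 73 (66 higher) by totals, 176 (173 higher) with TMM, 100 (53 higher) with RLE and 464 (142 higher) with DESeq2. 3D UC exomere against 2D UC exomere gave 4442 (82 higher) by totals, 483 (309 higher) with TMM, 1707 (194 higher) with RLE and 1145 (243 higher) with DESeq2. 3D UC supermere against 2D UC supermere gave 747 (76 higher) by totals, 182 (130 higher) with TMM, 251 (132 higher) with RLE and 684 (169 higher) with DESeq2. FPLC supermere against FPLC exomere gave 4330 (21 higher) by totals, 548 (136 higher) with TMM, 472 (182 higher) with RLE and 651 (234 higher) with DESeq2. FPLC exomere against 3D UC exomere gave 1012 (950 higher) by totals, 509 (337 higher) with TMM, 451 (314 higher) with RLE and 616 (478 higher) with DESeq2. FPLC supermere against 3D UC supermere gave 42 (7 higher) by totals, 19 (9 higher) with TMM, 46 (11 higher) with RLE and 103 (49 higher) with DESeq2. Gradient 9_10 against gradient 6_7 gave 3805 (3793 higher) by totals, 747 (352 higher) with TMM, 3381 (3314 higher) with RLE and 2066 (1956 higher) with DESeq2. Gradient 12 against gradient 6_7 gave 584 (100 higher) by totals, 660 (184 higher) with TMM, 1142 (900 higher) with RLE and 1179 (899 higher) with DESeq2. Gradient 12 against gradient 9_10 gave 3961 (58 higher) by totals, 396 (222 higher) with TMM, 447 (234 higher) with RLE and 688 (304 higher) with DESeq2. Gradient 6_7 against 3D UC sEV gave 318 (16 higher) by totals, 451 (21 higher) with TMM, 196 (31 higher) with RLE and 518 (151 higher) with DESeq2. Gradient 9_10 against 3D UC sEV gave 376 (265 higher) by totals, 570 (17 higher) with TMM, 1083 (943 higher) with RLE and 1428 (1260 higher) with DESeq2. Culture difference of exomere against sEV gave 76 (7 higher) by totals, 102 (66 higher) with TMM, 108 (78 higher) with RLE and 240 (155 higher) with DESeq2. Culture difference of supermere against sEV gave 108 (19 higher) by totals, 102 (35 higher) with TMM, 142 (89 higher) with RLE and 267 (146 higher) with DESeq2.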
